A study of Homo sapiens with 9 samples.

Results

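The 9 genes HLA-B, HLA-C, B2M, TAP1, TAP2, PSMB8, PSMB9, NLRC5 and CIITA, of 20033 protein-coding genes in all, were chosen as genes of the MHC class I pathway together with the class II regulator CIITA. The rule takes them by function and by reports in other tumours and uses no measured value, although earlier results of these data were known when they were chosen. For each gene, the peaks within 1 kb of its start site (the promoter) and within 20 kb of it were read from ATAC-seq peak lists. ATAC-seq maps open chromatin by the cuts that the Tn5 transposase makes in it.

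All libraries came from MDA-MB-231, an established human triple-negative breast cancer line, with 50000 cells in each. There were 2 libraries with a control shRNA (shCtrl), 2 with shEZH2, 2 with shE2F1 and 1 with shSUZ12, all from cells that carried the lentivirus for 24 h before 72 h in puromycin (2 μg/ml). There was 1 library from cells treated with GSK126, an inhibitor of the methyltransferase activity of EZH2, and 1 labelled DMSO in its title, whose treatment field reads WT. Both drug libraries lacked shRNA, and the labels give no dose. EZH2 is the methyltransferase of PRC2, a Polycomb complex that marks histone H3 at lysine 27 for repression, SUZ12 is a core subunit of the same complex, and E2F1 is a transcription factor of the cell cycle. The 2 shEZH2, the shSUZ12 and the GSK126 libraries are called the 4 PRC2 libraries here, and the shCtrl and DMSO libraries the 3 control libraries. The labels do not say that replicates came from separate cultures, so the spread between them may be technical, and the shSUZ12, GSK126 and DMSO conditions had no replicate. ATAC-seq peaks do not measure the RNA or protein of the targeted genes, so the knockdowns could not be checked here. In bulk cells, a site that is open in fewer cells and a site that is less open in all of them cannot be told apart.

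MHC class I molecules present peptides from inside the cell to CD8 T cells. Immunoproteasome subunits such as PSMB8 and PSMB9 cut proteins into peptides, the TAP1 and TAP2 transporter carries the peptides into the endoplasmic reticulum, and there they are loaded onto a heavy chain such as HLA-B or HLA-C that is paired with B2M. NLRC5 and CIITA are related coactivators that are recruited to the promoters of class I and class II genes by factors of the RFX, CREB and NF-Y families, bound to a conserved set of boxes that includes an X box and a Y box. Interferon acts through further factors at GAS and ISRE sites. In other tumours PRC2 has been reported to silence genes of this pathway.

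The peaks below were measured at the promoters of these genes, and 5 promoters are shown: both heavy chain genes, whose promoters are close relatives, B2M, and the adjoining promoters of TAP1 and PSMB9, which lay under 1 shared peak. Sequences are the 250 bases before the RefSeq start (GRCh38), 5′ to 3′ on the strand of the gene. HLA-B (chr6:31357180-31357429), HLA-C (chr6:31272093-31272342) and TAP1 (chr6:32853705-32853954) are on the minus strand, and B2M (chr15:44711267-44711516) and PSMB9 (chr6:32853942-32854191) on the plus strand. Capitals mark matches, on either strand, to an ISRE (GAAANNGAA), a Y box (CCAAT), a CRE core as in the X box (TGACG), a GAS (TTCNNNGAA), an AP-1 site (TGANTCA) or an E2F site (TTTNNCGC).
HLA-B: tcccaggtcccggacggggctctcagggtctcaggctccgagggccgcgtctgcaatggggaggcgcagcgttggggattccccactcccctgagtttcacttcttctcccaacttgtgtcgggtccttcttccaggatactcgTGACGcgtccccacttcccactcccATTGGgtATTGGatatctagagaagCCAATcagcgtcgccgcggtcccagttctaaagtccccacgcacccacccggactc
HLA-C: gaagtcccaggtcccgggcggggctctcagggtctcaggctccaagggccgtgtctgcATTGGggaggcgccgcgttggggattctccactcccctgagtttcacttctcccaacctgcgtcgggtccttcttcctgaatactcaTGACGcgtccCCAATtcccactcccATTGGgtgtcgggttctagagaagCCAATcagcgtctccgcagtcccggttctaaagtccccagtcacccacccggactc
B2M: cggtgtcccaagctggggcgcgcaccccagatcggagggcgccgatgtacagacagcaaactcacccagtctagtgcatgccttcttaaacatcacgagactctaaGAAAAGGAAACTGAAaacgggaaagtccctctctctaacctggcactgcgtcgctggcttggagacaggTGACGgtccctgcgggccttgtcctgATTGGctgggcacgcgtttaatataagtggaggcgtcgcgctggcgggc
TAP1: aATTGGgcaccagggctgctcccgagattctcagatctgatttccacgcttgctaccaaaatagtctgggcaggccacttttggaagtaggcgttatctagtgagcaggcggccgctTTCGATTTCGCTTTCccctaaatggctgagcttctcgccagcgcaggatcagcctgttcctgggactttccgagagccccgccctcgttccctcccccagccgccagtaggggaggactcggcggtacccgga
PSMB9: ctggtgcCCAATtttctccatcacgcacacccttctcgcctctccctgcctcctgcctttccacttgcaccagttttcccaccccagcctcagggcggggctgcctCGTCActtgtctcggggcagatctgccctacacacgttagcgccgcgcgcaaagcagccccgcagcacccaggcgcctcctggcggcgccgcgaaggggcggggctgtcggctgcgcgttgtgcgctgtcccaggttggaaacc

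The RefSeq table held 7 of the 9 genes, and NLRC5 and CIITA were not in it. The CRE core was found in 5 of the 7 (HLA-B, HLA-C, B2M, TAP2 and PSMB9), against 21.2% of all 35116 promoters of the same length. The Y box was also found in 5 of the 7 (HLA-B, HLA-C, B2M, TAP1 and PSMB9), against 32.0% of all promoters, and for TAP1 and PSMB9 it was the same 5 letters, read from opposite strands. In HLA-B the CRE core began at -106 and a Y box at -56 from the start, and in HLA-C they began at -105 and -56. In B2M the CRE core began at -75 and the Y box, on the other strand, at -49. The ISRE letters were found in B2M, TAP1 and TAP2 (3 of 7, against 6.88% of promoters), as 2 overlapping matches each in B2M and TAP1. Only exact matches were counted, so sites with other letters are missed, and no match, as in HLA-B and HLA-C, does not mean no ISRE. The GAS letters (6.57% of promoters) and the E2F letters (5.92%) were found in PSMB8 alone of the 7, and the AP-1 letters (6.57%) in none of them. The windows do not always hold the peak summit, which lay at -661 to -693 from the start at PSMB8 and at -368 to -427 at TAP1. From the PSMB9 start the summit shared with TAP1 lay at -61 to -120, inside the window. GC content of the 7 windows was 56.8% to 67.2%, against a median of 58.0% for all promoters.

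The lists held 58626 peaks (second shEZH2 library) to 85812 peaks (second shE2F1 library), all with a −log10 q of at least 2. The depth of a library was read from the background tags that its peaks were tested against, whose most frequent value was 1.41 in the second shEZH2, 1.46 in the GSK126 and 1.5 in the first shE2F1 library and 1.79 to 2.18 in the other libraries. Because lists of different length and depth cannot be compared peak by peak, each peak was given the percentile of its fold enrichment (tags at the summit over local background) among all peaks of its own library. Markers of a mesenchymal basal line (VIM, CD44, AXL, CAV1 and EGFR) had a promoter peak in all 9 libraries for 5 of 5 genes. Luminal markers had one in all 9 for 1 of 6 (ERBB3), but 5 of 6 had one in each shCtrl library. CDH1 and ESR1 had a peak in 8 libraries, FOXA1 and PGR in 7, and GATA3 in none. The mean percentile of ERBB3 (59.1) was above those of the basal markers (15.1 at AXL to 43.5 at EGFR), so these peaks do not separate the 2 types cleanly. The leukocyte markers PTPRC, CD3E, CD79A and SPI1 had none in any library.

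Each of the 9 promoters had a peak in each of the 9 libraries. Of all protein-coding promoters, 12026 of 20033 (60.0%) had one in all 9. Over these 12026, the mean percentile of a promoter had a median of 77.6 and quartiles of 57.8 and 89.7. The members fell on both sides of that median. PSMB8 (88.4), TAP2 (85.5), the shared TAP1 and PSMB9 peak (81.2) and B2M (80.0) were above it as means over 9 libraries, HLA-C (73.7) was somewhat below, and HLA-B (55.7), NLRC5 (50.3) and CIITA (46.7) were below the lower quartile. SDs over the 9 libraries were 3.21 for TAP1 and PSMB9, 3.67 for B2M, 3.75 for PSMB8, 4.45 for TAP2, 5.36 for NLRC5, 8.66 for HLA-C, 9.35 for CIITA and 11.1 for HLA-B. Of neighbours in this order, HLA-C stood above HLA-B by 18.0 ± 11.9 points (mean and SD of the difference over the 9 libraries, higher in 8 of 9) and TAP2 above TAP1 by 4.22 ± 3.4 (8 of 9). The gap was smaller than its SD for each of the other neighbours, such as PSMB8 above TAP2 (2.92 ± 3.57, 7 of 9) and NLRC5 above CIITA (3.56 ± 13.1). NLRC5 was the higher of that pair in only 3 of 9 libraries.

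**Figure D1:**
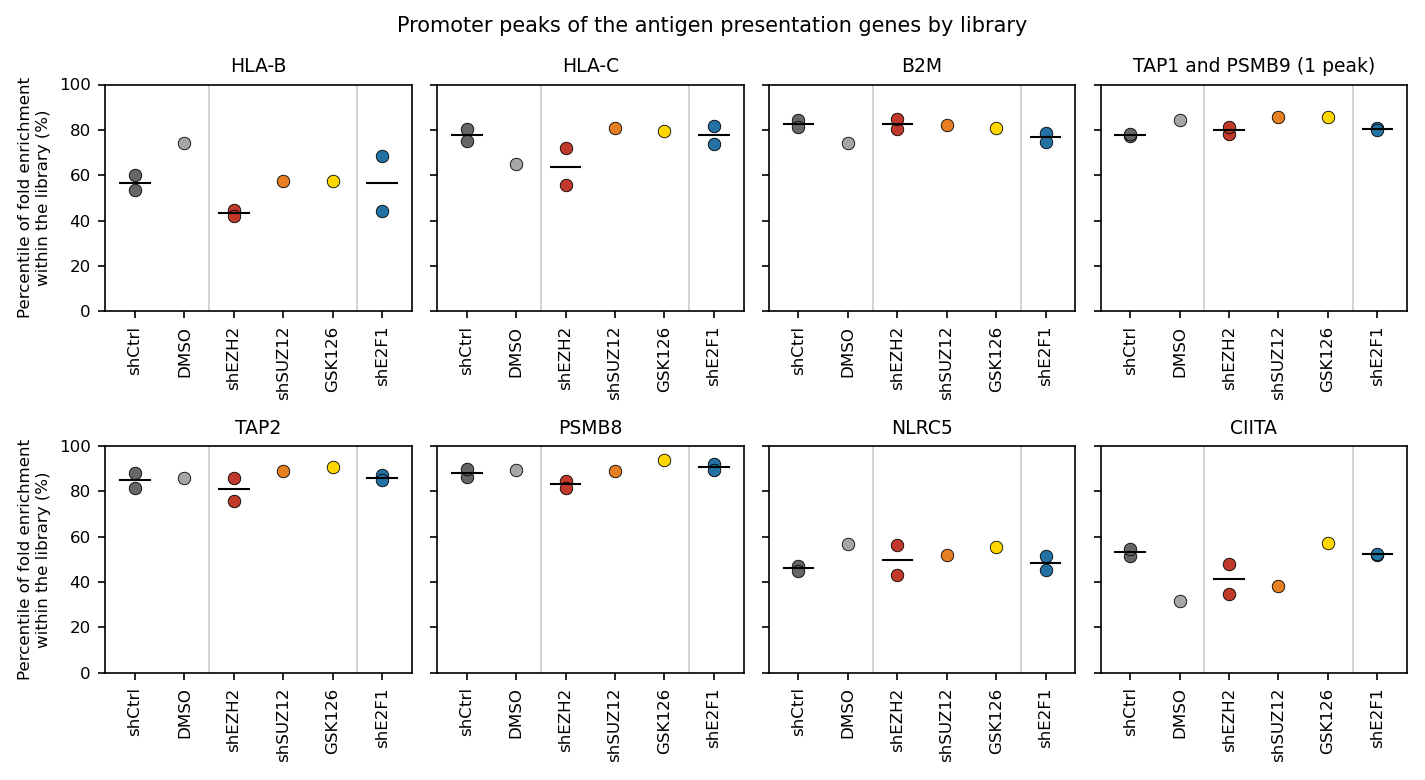
Percentile of the fold enrichment of the promoter peak within its own library (vertical axis, %) for each gene, with 1 point per library, grouped by condition, and a bar at the mean where a condition has 2 libraries. HLA-B, NLRC5 and CIITA sit lowest, and the shEZH2 points lie below both shCtrl points for HLA-B, HLA-C, PSMB8 and CIITA.

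The heavy chain gene HLA-B (chr6, start 31357179, minus strand) had a promoter peak at percentiles of 53.4 and 59.9 in the shCtrl libraries and 74.2 in DMSO. It stood at 44.5 and 42.0 in the shEZH2 libraries and at 57.3 in both shSUZ12 and GSK126. In the shE2F1 libraries it was at 44.2 and 68.5. Both shEZH2 libraries were below both shCtrl libraries, with means of 43.3 ± 1.8 and 56.7 ± 4.6 (SD, n = 2 each), and GSK126 was 16.8 points below DMSO. Its tags at the summit ranged from 48 (95% exact Poisson interval 35.4 to 63.6) in the first shE2F1 library to 119 (98.6 to 142.0) in the second shCtrl library, and such intervals cover counting error only. The summit lay at -79 to -127 from the start in 7 libraries, and at 350 and 469 bp inside the gene in the second shEZH2 and first shE2F1 libraries, where tags were fewest.

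HLA-C (chr6, start 31272092, minus strand), the other heavy chain gene, had percentiles of 80.2 and 74.9 in shCtrl and 65.1 in DMSO. It had 72.1 and 55.5 in shEZH2, 80.8 in shSUZ12 and 79.4 in GSK126. In shE2F1 it had 73.6 and 81.7. The shEZH2 libraries were again the lower pair against shCtrl (63.8 ± 11.8 against 77.5 ± 3.74, SD, n = 2 each), but here GSK126 was 14.3 points above DMSO, the opposite of HLA-B. HLA genes are near copies of each other and differ between people, and reads were aligned with up to 4 placements each, so some reads of one may be counted at another. How much this moved either percentile was not tested.

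B2M (chr15, start 44711517, plus strand), the invariant light chain, varied little. It stood at 84.2 and 81.2 in shCtrl, 74.1 in DMSO, 80.2 and 84.6 in shEZH2, 82.0 in shSUZ12, 80.6 in GSK126 and 78.6 and 74.8 in shE2F1. The shEZH2 libraries overlapped the shCtrl libraries, and both shE2F1 libraries were below them by 5.97 points on average. The B2M peak also covered a start of PATL2.

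TAP1 (chr6, start 32853704, minus strand) and PSMB9 (start 32854192, plus strand) start 488 bp apart in opposite directions, and 1 peak of 1445 to 1963 bp covered both starts in each library, so their values are 1 measurement. Its percentiles were 77.5 and 78.2 in shCtrl and 84.2 in DMSO. They were 78.2 and 81.4 in shEZH2, 85.6 in shSUZ12 and 85.6 in GSK126. They were 80.6 and 79.8 in shE2F1. The 4 PRC2 libraries spanned 78.2 to 85.6 and the 3 control libraries 77.5 to 84.2. This was the promoter peak of the members with the most tags at the summit, 118 to 269.

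TAP2 (chr6, start 32838739, minus strand), the partner of TAP1 in the transporter, had percentiles of 81.6 and 88.2 in shCtrl, 85.7 in DMSO, 75.9 and 85.9 in shEZH2, 89.1 in shSUZ12, 90.7 in GSK126 and 87.4 and 84.8 in shE2F1. The shSUZ12 value was just above the higher shCtrl value, and the first shEZH2 library was the lowest of the 9. PSMB8 (chr6, start 32844047, minus strand), the other immunoproteasome subunit, had 86.4 and 90.0 in shCtrl, 89.2 in DMSO, 84.4 and 81.7 in shEZH2, 88.9 in shSUZ12, 93.8 in GSK126 and 92.0 and 89.2 in shE2F1. The 2 shEZH2 libraries were the lowest and GSK126 the highest of the 9. The PSMB8 summit lay at -661 to -693 from the canonical start, near a second PSMB8 start at -632, and the peak also covered an alternative start of PSMB9.

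NLRC5 (chr16, start 56989557, plus strand), the class I coactivator, had percentiles of 47.3 and 44.9 in shCtrl, 57.0 in DMSO, 56.5 and 42.9 in shEZH2, 52.0 in shSUZ12, 55.4 in GSK126 and 45.3 and 51.5 in shE2F1, and control and PRC2 libraries overlapped over nearly the whole range. Its width did not. The NLRC5 promoter peak was 1229, 1459 and 1194 bp wide in shCtrl and DMSO, against 786 and 604 bp in shEZH2, 822 bp in shSUZ12 and 1037 bp in GSK126. In shE2F1 it was 550 and 1387 bp. It was narrower in 4 of 4 PRC2 libraries than in all 3 control libraries (812.2 against 1294.0 bp on average, two-sided exact permutation p = 0.0571, adjusted 0.643 over 12155 promoters by Benjamini-Hochberg), as were 9.11% of all promoters, while 0.296% were wider. No other member was narrower or wider in this way. In the second shEZH2, the GSK126 and the first shE2F1 libraries the NLRC5 promoter held 2 peaks, and with their widths summed GSK126 (1363 bp) fell within the control range. The 4 PRC2 libraries had 34 to 61 tags at the NLRC5 summit and the control libraries 55 to 66.

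CIITA (chr16, start 10877202, plus strand), the class II coactivator, had the narrowest promoter peak of the members, 294 to 404 bp. It stood at percentiles of 51.6 and 54.5 in shCtrl and 31.7 in DMSO. It stood at 34.8 and 47.8 in shEZH2, 38.3 in shSUZ12 and 57.4 in GSK126. In shE2F1 it stood at 52.1 and 52.5. The shEZH2 and shSUZ12 libraries were all below both shCtrl libraries, and GSK126 was 25.7 points above DMSO, which was the lowest of the 9. The CIITA summit held 27 to 81 tags. In the DMSO library it held 45 tags (95% exact Poisson interval 32.8 to 60.2) and in GSK126 52 (38.8 to 68.2).

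Set against shCtrl, the shEZH2 libraries had 4 members lower, meaning that both libraries were below both controls, and 2 higher. Lower were HLA-C (a difference in means of -13.7 percentile points), HLA-B (-13.4), CIITA (-11.7) and PSMB8 (-5.18), and higher was the TAP1 and PSMB9 peak (1.94 points, with the lowest shEZH2 library above the highest shCtrl library by 0.024 points). Over all 12234 promoters with a peak in these 4 libraries, 29.7% were lower and 10.6% higher by the same rule, and the median difference was -2.58, against -3.94 for the members. The TAP1 and PSMB9 peak, though 1 measurement, enters the counts and medians of members as 2, here and below. With 2 libraries against 2, an exact permutation test cannot go below p = 0.333 for a two-sided test. With lists cut to the same number of peaks, 1 member (PSMB8) was lower, and with the rank taken among promoters alone 2 were (HLA-B and PSMB8). The shares of all promoters do not cover these 2 settings.

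The shSUZ12 library was above both shCtrl libraries at 5 members, TAP1 and PSMB9 (7.8 points above the shCtrl mean), NLRC5 (5.92), TAP2 (4.23) and HLA-C (3.24), and below both at CIITA (-14.7). Of all promoters 52.6% were higher and 19.2% lower by this rule, with a median difference of 2.73, against 3.24 for the members. With the TAP1 and PSMB9 peak counted once, the median of the members lies midway between 0.711 (PSMB8) and 3.24 (HLA-C), which is below 2.73. The balance depended on the ranking, with 2 members higher and 4 lower by the rank among promoters alone and 3 higher and 3 lower by −log10 p. With DMSO as a further control CIITA was no longer below. The shares of all promoters do not cover these other settings. The GSK126 library was at least 10 points above DMSO at CIITA (25.7) and HLA-C (14.3), as were 6.87% of all promoters, and at least 10 points below it at HLA-B (-16.8), as were 15.4%. Its median difference from DMSO was 4.61 for the members, against -0.764 for all promoters. Neither comparison had replicates on both sides, so neither has a test. At both CIITA and HLA-C the DMSO library was itself below both shCtrl libraries, and the GSK126 value was within the shCtrl range at HLA-C and just above it at CIITA. At HLA-B the DMSO library was the highest of the 9, and the GSK126 value was within the shCtrl range.

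Over the 4 PRC2 against the 3 control libraries, 0 members were higher in all 4 and 0 were lower in all 4, against 2.11% and 3.38% of 12155 promoters. The differences in means ran from -12.2 points at HLA-B to 2.74 at TAP1 and PSMB9. Exact permutation tests over the 35 arrangements of the 7 libraries (two-sided, smallest p possible 0.0286) gave p from 0.2 at HLA-B to 0.914 at TAP2, and p adjusted over all promoters by Benjamini-Hochberg was 1.0 for each. An unadjusted exact p of at most 0.05 was reached by 0 members and by 2.4% of all promoters. HLA-B was lower in 4 of 4 PRC2 libraries than DMSO and the second shCtrl library, and the first shCtrl library, at 53.4, lay within the PRC2 range. Without it HLA-B was lower in all 4 (1 member in place of 0), and without DMSO the TAP1 and PSMB9 peak was higher in all 4 (2 members).

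The E2F1 knockdown does not target PRC2, but the authors report higher EZH2 and, slightly, SUZ12 protein after it, and more of the PRC2 histone mark. It gave 2 members higher, which share 1 peak, and 1 lower. Against shCtrl the TAP1 and PSMB9 peak was higher (2.36 points) and B2M lower (-5.97), with 19.2% of all promoters higher and 17.0% lower. At HLA-B the shE2F1 libraries stood 44.2 and 68.5, wider apart than any other pair of replicates at a member promoter.

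**Figure D2:**
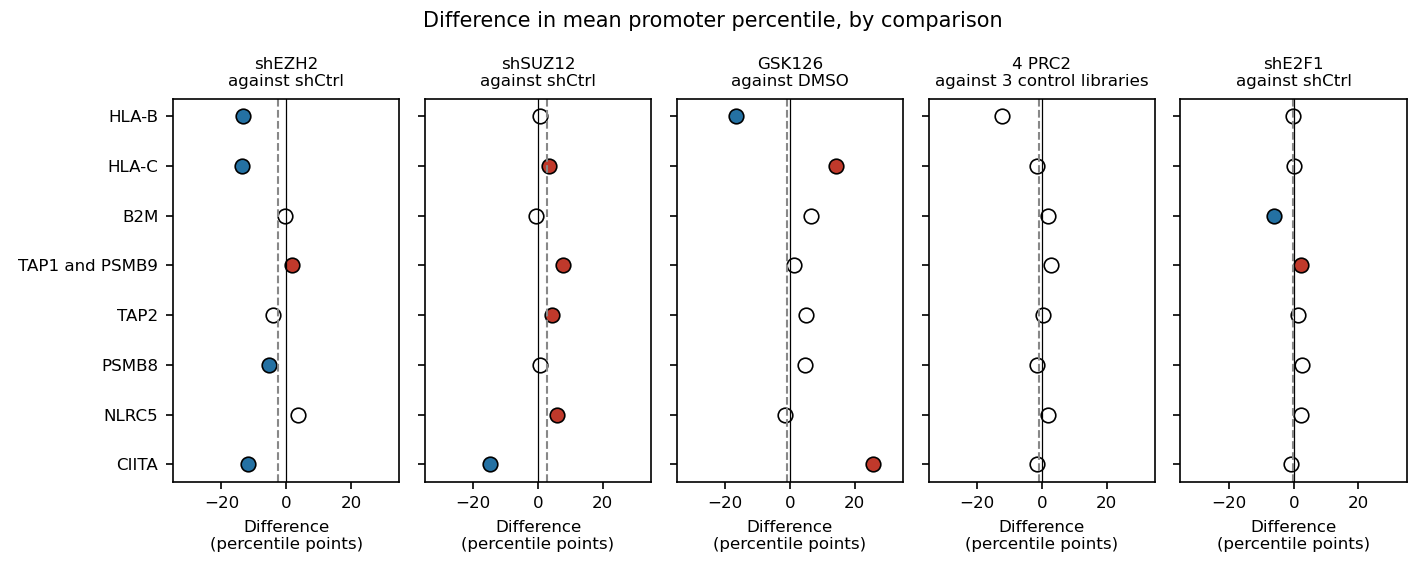
Difference in mean percentile between the named libraries (horizontal axis, percentile points) for each gene and comparison. Filled points mark genes whose libraries did not overlap (or, for GSK126, differed by at least 10 points), red where higher and blue where lower, open points the rest, and the dashed line the median over all promoters. CIITA lies at -14.7 with shSUZ12 and at 25.7 with GSK126, and no point is filled for the 4 PRC2 against the 3 control libraries.

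Peaks near the genes were followed to 20 kb on either side of each start. Merged over the 9 libraries, there were 28 such regions. A peak was present in all 9 libraries at 15 of them (53.6%), against 34.2% of the 118719 regions of the genome. The 15 include 8 at the member promoters themselves. Of the 28, 19 lay outside the member promoters, 7 of them (36.8%) in all 9 libraries and 4 (21.1%) in a single one, against 34.2% and 24.3% of the regions of the genome. The starts of TAP1, TAP2, PSMB8 and PSMB9 lie 488 to 15453 bp apart, so their windows overlap, and each region was assigned to the nearest member. No region outside the promoter was found for HLA-C.

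The region whose PRC2 and control libraries did not overlap lay upstream of CIITA, at -14558 bp from its start (chr16:10862368-10862879, between genes). Its percentiles were 94.3, 96.6 and 96.3 in the shCtrl and DMSO libraries. They were 50.5 and 87.0 in shEZH2, 90.6 in shSUZ12 and 92.3 in GSK126. All 4 PRC2 libraries were below all 3 controls (80.1 against 95.7 on average, a difference of -15.6 points), as were 6.06% of 43187 regions with a peak in these 7 libraries, while 1.63% were higher. Without the first shEZH2 library (50.5) the difference was -5.74 points (90.0 against 95.7). Leaving out a library cannot create an overlap, so this says only how far the difference rests on that library. Of the 7 regions outside promoters that could be compared, the other 6 did not do so. The shE2F1 libraries stood at 68.6 and 99.3, below and above the controls, so low values were not confined to the PRC2 libraries. Tags at the summit were 48, 71 and 59 in the controls, 19 and 26 in shEZH2, 44 in shSUZ12, 48 in GSK126 and 19 and 62 in shE2F1. The region was named for its pattern among those 7 and has no test here.

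The other CIITA regions did not share this pattern. At -5541 bp, in an intron of longer CIITA transcripts, percentiles were 81.6 to 89.1 in the PRC2 libraries and 85.1 to 89.4 in the controls. At 1728 bp, where a second coding start of CIITA lies (1767 bp downstream of the canonical one), the region stood at 25.5, 19.6 and 42.9 in shCtrl and DMSO, at 16.5 and 14.0 in shEZH2, 29.0 in shSUZ12 and 12.9 in GSK126, and at 12.0 and 40.1 in shE2F1. CIITA is known to have several promoters, of which the most downstream answers to interferon-γ. Here the downstream region was weaker than the canonical start in 8 of 9 libraries, DMSO being the exception, and the 2 shEZH2 values were below the 2 shCtrl values (a difference in means of -7.35 points), and GSK126 was below DMSO (-29.9 points). The shEZH2 difference turned to 1.88 with lists cut to the same number of peaks.

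At NLRC5, a small region at -3820 bp had a peak in both shCtrl libraries, DMSO and shSUZ12 (percentiles 13.6, 11.4, 10.2 and 27.6) and none in shEZH2, GSK126 or shE2F1. An intronic region at 11207 bp was strong in all 9 libraries, with percentiles of 92.7, 92.2 and 86.7 in the controls, 85.8, 89.4, 87.8 and 67.8 in shEZH2, shSUZ12 and GSK126, and 75.8 and 80.2 in shE2F1. It was below both shCtrl libraries in both shEZH2, the shSUZ12 and both shE2F1 libraries, and lower in GSK126 than in DMSO (-18.9 points). The second shEZH2 (89.4) and the shSUZ12 library (87.8) were above DMSO (86.7), so the PRC2 and control libraries overlapped.

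**Figure D3:**
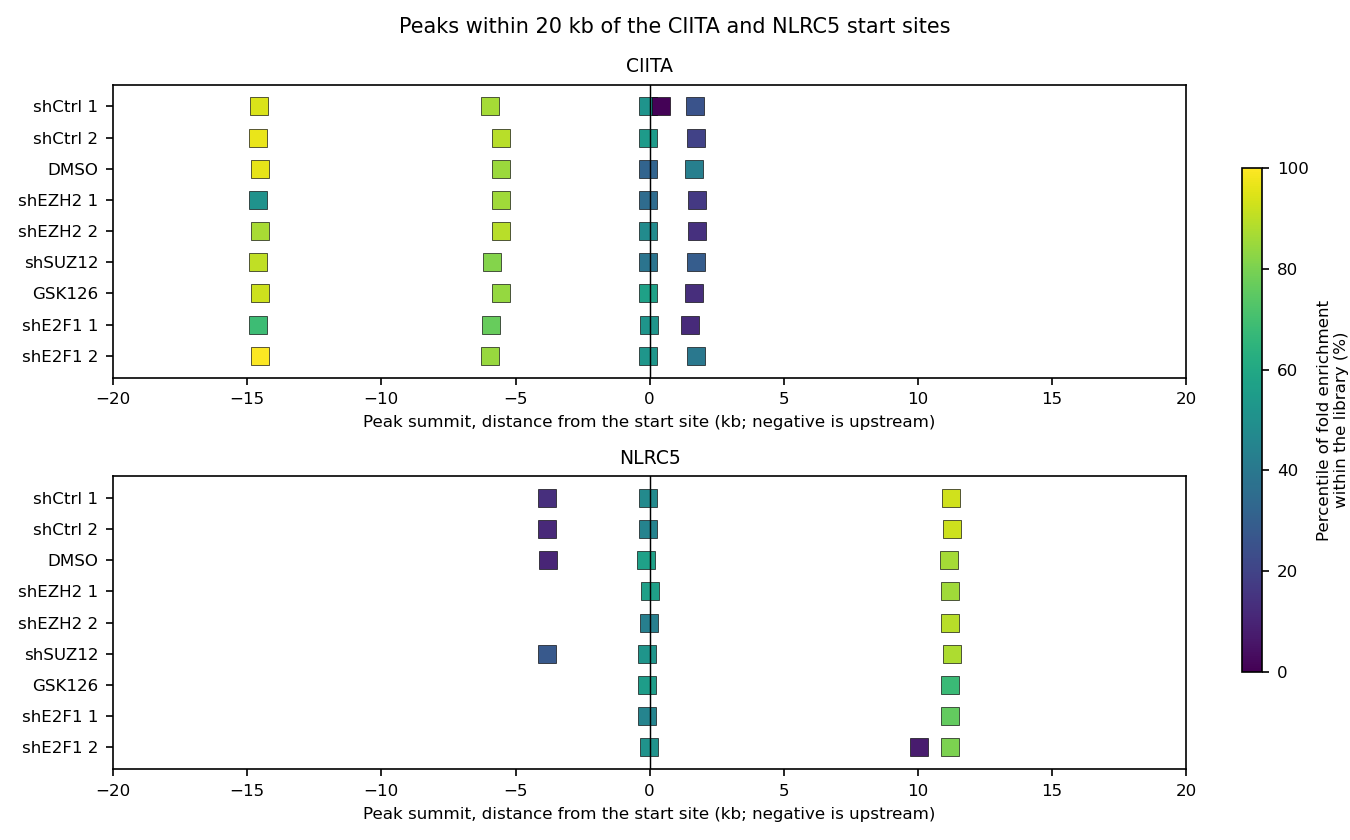
Summits of peaks within 20 kb of the start sites of CIITA (top) and NLRC5 (bottom), by distance from the start (horizontal axis, kb) and library (rows), coloured by the percentile of fold enrichment within the library. The CIITA region at -14558 bp is at 94.3 to 96.6 in the controls and at 50.5 in the first shEZH2 library, and the NLRC5 region at -3820 bp is missing from shEZH2, GSK126 and shE2F1.

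Near the class I genes, a region at -9887 bp from HLA-B, at a set of alternative HLA-B starts, had percentiles of 92.8 to 99.2 over the 9 libraries. Its percentile was above that of the canonical HLA-B promoter in each of them. In tags at the summit it was above that promoter only in the first shEZH2 (71 against 66) and second shE2F1 library (90 against 87). In the shCtrl libraries it was below, with 60 and 89 tags against 83 and 119. An intergenic region 7128 bp downstream of the PSMB9 start stood at 83.6, 60.8 and 65.0 in shCtrl and DMSO, 77.0 and 85.9 in shEZH2, 96.1 in shSUZ12, 70.9 in GSK126 and 84.5 and 95.4 in shE2F1. A region 18825 bp from TAP2, in an intron of the class II gene HLA-DOB, had 32.9, 60.1 and 43.7 in shCtrl and DMSO, 78.4 and 73.1 in shEZH2 and 24.4 in GSK126, and no peak in shSUZ12. In shE2F1 it had no peak in the first library and 53.3 in the second. At this region near TAP2 both shEZH2 libraries were above both shCtrl libraries, by 29.2 points, on 13 to 29 tags at the summit. Near B2M, the start of TRIM69 at 17491 bp had a peak in all 9 libraries, with percentiles of 66.0 to 86.9.

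Only some of the 19 regions outside promoters had a peak in each library of a comparison and could be called higher or lower, and gains and losses were counted over all 19. With shEZH2, of the 8 that could be compared, 1 was higher (18825 bp from TAP2) and 3 lower (-14558 and 1728 bp from CIITA and 11207 bp from NLRC5), against 11.6% and 31.6% of the 46768 regions of the genome that could be. Of the 19, 1 lost its peak in both libraries (-3820 bp from NLRC5) and 0 gained one, against 5.87% and 0.727% of all 118719 regions. With shSUZ12, 3 of 9 were higher and 5 of 9 lower, against 32.4% and 38.9% of 56451 regions, and 2 of the 19 lost and 0 gained a peak, against 6.86% and 5.35%. The 2 lost lay 1176 bp from B2M and 18825 bp from TAP2. With GSK126, 1 of 11 was higher and 4 of 11 lower than DMSO, against 14.6% and 25.2% of 58131 regions, and 3 of the 19 lost and 1 gained a peak, against 11.2% and 5.67%. With shE2F1, of 8 regions 1 was higher (7128 bp from PSMB9) and 2 lower (-5541 bp from CIITA and 11207 bp from NLRC5), against 16.9% and 22.6% of 50945 regions, and the same NLRC5 region as with shEZH2 was lost and 0 gained, against 3.36% and 2.56%. The shEZH2, shSUZ12 and shE2F1 comparisons share the same 2 control libraries.

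A wider list of 35 antigen presentation genes was read in the same way. A promoter peak in all 9 libraries was found for 11 of 13 other genes of class I and peptide loading, 11 of 11 regulators and 6 of 11 class II genes. The class I gene HLA-G and the class II genes HLA-DPA1 and HLA-DQA1 had none in any library. ERAP2, a peptidase that trims peptides, had a weak peak in 6 libraries (percentiles 1.21 to 13.6). HLA-DOA had one in 5, HLA-DOB in 1 (the first shE2F1) and HLA-DQB1 in 8, all but GSK126. Class II genes with open promoters in all 9 were HLA-DMA (mean percentile 98.2), HLA-DMB (84.3), HLA-DRB1 (67.5), HLA-DPB1 (65.7), HLA-DRA (52.9) and CD74 (39.5).

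Of the 28 listed genes with a peak in the 7 libraries, 0 were higher in all 4 PRC2 than in all 3 control libraries and 1 was lower, against 2.11% and 3.38% of all promoters. The lower one was TAPBP, which encodes tapasin, the bridge between transporter and heavy chain, at 17.1, 15.8 and 13.8 in the controls and 2.8, 8.41, 4.77 and 8.01 in the PRC2 libraries, a difference of -9.56 points. In shE2F1 the TAPBP peak stood at 15.4 and 28.3. The control and PRC2 values lie low in each list, and their tags at the summit are not given here. TAPBP had the smallest exact permutation p that is possible, 0.0286, and an adjusted p of 1.0.

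**Figure D4:**
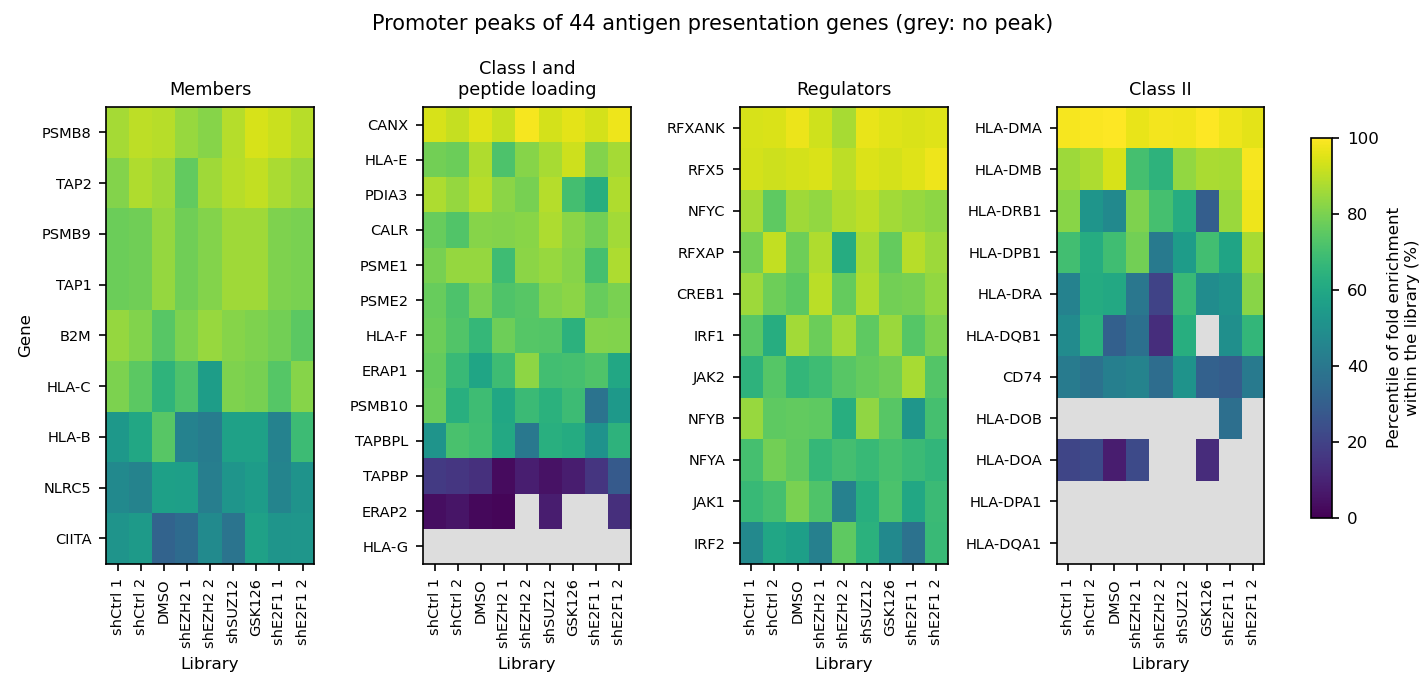
Percentile of the promoter peak within its own library (colour) for the 9 members and the 35 other genes (rows, ordered by mean) in each library (columns), with grey where a library has no peak. Members and regulators have a peak in all 9 libraries, while class II rows hold most of the grey.

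By comparison, the 35 genes had 2 higher and 9 lower with shEZH2 (of 29 that could be compared), 15 higher and 6 lower with shSUZ12 (of 30), 2 higher and 4 lower with GSK126 (of 29) and 6 higher and 4 lower with shE2F1 (of 29). Read against the shares of all promoters given above, the largest of these, 15 of 30 with shSUZ12, stands beside 52.6%. With shEZH2 the higher genes were CALR and IRF1. The 9 lower were NFYA, NFYB, PDIA3, RFXANK, TAPBP and 4 of the 7 class II genes that could be compared, against 29.7% of all promoters. These 4 were HLA-DMB (70.5 and 64.7 in shEZH2 against 85.4 and 87.7 in shCtrl), HLA-DRA (-23.1 points), HLA-DQB1 (-30.9) and HLA-DMA. At HLA-DMA the difference was only -1.44 points. The other class II genes overlapped, with differences of -5.77 points at HLA-DPB1, 0.689 at CD74 and 8.19 at HLA-DRB1.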

How the data were processed

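The 9 peak lists (shCtrl, shEZH2 and shE2F1, 2 each, and shSUZ12, DMSO and GSK126, 1 each) were grouped by the titles in the labels. The authors aligned reads with Bowtie2 (up to 4 placements per read) and shifted them by +4 and -5 bp for the Tn5 cut before peak calling, and the build is GRCh38 per the labels. The peak caller is not given in the sources used here. Each deposited list gives, per the authors' caller, a fold enrichment (the ratio of summit to local background), a −log10 p and a −log10 q, a score and the summit. Peaks on 24 chromosomes ended within the GRCh38 lengths.

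From these, promoters (1 kb either side of the GENCODE 44 canonical start), mid-rank percentiles of fold enrichment, regions merged at 1 bp of overlap, and whole tags behind each peak were computed. A fold of (tags + 1) over (background + 1) with a Poisson −log10 p fitted at least 99.87% of 3000 sampled deposited peaks per library to within 0.002. A member counted as higher or lower where the libraries of the groups did not overlap (GSK126: by at least 10 points), and the 4 PRC2 and 3 control libraries were also compared by two-sided exact permutation. Python 3.11.15, numpy 2.4.6, pandas 2.3.3 and scipy 1.17.1 were used, and the code was tested on simulated data.

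The members and lists were chosen with earlier results of these data known. Some genes of the lists are not reported here. Genes of the 35-gene list were named where absent from a library or where the 4 PRC2 and 3 control libraries did not overlap, others being chosen after their values were seen, and regions where a peak was present in all libraries or was gained or lost. The comparison of regions by percentile and of widths, and the rank among promoters alone, were chosen after seeing the data. Replicate numbers did not pair the libraries (r = 0.0571 for shCtrl with shEZH2 and 0.0544 with shE2F1, across promoters, which are not independent). Reads were not used here.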

Additional observations from a re-analysis of the deposited data

Results flagged for a closer look

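Knockdown of EZH2 and of SUZ12 went in opposite directions at the HLA-C promoter, where both shEZH2 libraries were below both shCtrl libraries and the shSUZ12 library was above them. The effect of shEZH2 minus that of shSUZ12 was -17.0 percentile points. The difference was not tested, shSUZ12 is a single library, and the comparisons share the 2 shCtrl libraries. With the rank by −log10 p, or among promoters alone, HLA-C was not above shCtrl in shSUZ12.

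The same opposite directions were seen at the region 1728 bp downstream of the CIITA start, where the difference between the effects was -13.7 points. It was not tested either, the peaks there rest on 22 to 47 tags at the summit in these 5 libraries, and the sign of the shEZH2 effect turned with lists of equal length.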

How the results depend on the processing

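All 9 members kept a promoter peak in all 9 libraries under each window, start, threshold and list length tried. Counts of members higher or lower depended on the ranking. The shares of all promoters given above are for the main setting, and none is given for the settings below. Whether all promoters moved in the same way as the members therefore cannot be read from these counts. By −log10 p, members higher were 0 with shEZH2, 3 with shSUZ12, 1 with GSK126 and 0 with shE2F1, and lower were 3 with shSUZ12, 0 with GSK126 and 2 with shE2F1. TAP1 and PSMB9 then turned to -0.361 points with shEZH2 and -0.253 with shE2F1, and HLA-C to -0.29 with shSUZ12. With lists of equal length, lower were 1 with shEZH2 and 0 with shE2F1, and the region 1728 bp from CIITA turned to 1.88 with shEZH2. At any coding start, higher were 1 with shEZH2 and 1 with shE2F1, lower were 2 with shSUZ12 and 0 with GSK126, and PSMB9 turned to -5.18 with shEZH2. With a −log10 q of at least 5, higher were 0 with shEZH2. Among promoters alone, an alternative chosen after seeing the data, lower were 2 with shEZH2 and 4 with shSUZ12, higher were 2 with shSUZ12, 5 with GSK126 and 1 with shE2F1, and with shSUZ12 HLA-C turned to -1.51 and NLRC5 to -0.0353. For GSK126, a step of 20 points left 1 higher and 0 lower, and a value outside DMSO and both shCtrl libraries gave 5 and 0. With DMSO as a further control, 0 were lower in shSUZ12. The cause of these changes was not tested.

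Leaving out 1 library at a time gave 2 to 3 members higher and 4 to 6 lower with shEZH2, 6 to 7 higher and 2 to 3 lower with shSUZ12, and 3 to 5 higher and 1 to 3 lower with shE2F1. By the rule of no overlap, leaving out a library can only keep or raise a count, so these ranges do not show that the calls are stable. No share of all promoters is given beside them. Without the first shCtrl library lower were 3 with shSUZ12 and 3 with shE2F1, and without the second lower were 2 with shSUZ12 and higher 5 with shE2F1. Without the first shE2F1 library higher were 5, and without the second lower were 3. For the 4 PRC2 against the 3 control libraries the range was 0 to 2 higher (2 without DMSO) and 0 to 1 lower (1 without the first shCtrl library). The difference at the region upstream of CIITA was -19.7 to -5.74 points, an alternative chosen after seeing the data.

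With the replicate block (each library against the shCtrl library of the same number) 2 members were higher and 5 lower with shEZH2, and 2 and 1 with shE2F1. This pairing changed no other count, and the numbers did not pair the libraries. Permutation within the lentiviral and within the drug libraries has only 20 arrangements, so its smallest possible p is 0.05. It also left 0 members at p of at most 0.05, a level that 4.27% of 12155 promoters reached. Only the most extreme arrangement can reach that level and few promoters did, so no conclusion is drawn from the count of 0. Peaks on few tags carry wide counting errors, and depth differed between libraries. Such peaks are those 18825 bp from TAP2 (13 to 29 tags) and the weakest at -14558 bp (19) and 1728 bp (17) from CIITA.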
